A study of Mus musculus with 4 samples.

Results

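The genes described here are the subunits, activators and assembly chaperones of the proteasome: every gene of the deposited matrix whose symbol begins with Psma, Psmb, Psmc, Psmd, Psme or Psmg followed by a digit, 49 of 31053 genes. The choice used symbols and no measured value. By role they are 7 alpha subunits and 7 constitutive beta subunits of the 20S core and the 3 immunoproteasome beta subunits. For the 19S cap there are 6 ATPases and 14 Psmd genes, which include cap assembly factors such as Psmd9 and Psmd10 besides subunits. The rest are 4 activators, 4 Psmg assembly chaperones and 4 genes kept apart. The 4 kept apart are Psmb11, the thymus-specific beta subunit, with 0 UMIs (unique molecular identifiers, the counted transcripts); Psma8, a testis alpha subunit, with 33 UMIs; Psmc3ip, which carries a similar symbol but acts in meiotic recombination; and Psme2b, a near copy of Psme2. How the counting divided reads between Psme2 and Psme2b is not known, so values of both are uncertain.

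Single-cell RNA sequencing was done by droplet capture on cells of trabecular bone, taken from the tibia at its proximal and distal ends, of mice 8 weeks old. All 4 sample records carry 1 genotype, Col10a1Cre; Rosa26-Tdtomato; Irx3 +/Δ; Irx5 +/-, a heterozygous control group labelled Ctrl and noPTH. Col10a1-Cre acts in hypertrophic chondrocytes of the growth plate, so the tdTomato reporter marks these cells and their descendants, and every cell here comes from animals heterozygous at Irx3 and Irx5. The matrix pools the 4 records under 1 barcode suffix, so the data are 1 library, no test between samples can be made, and no p-value is given. Every interval given is a 95% interval and covers counting error only. All are exact except that of the difference between the highest and lowest immunoproteasome share, which is approximate. PCR and pooling add error that these intervals do not hold, and the number of animals behind the 4 records is not given.

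The proteasome degrades proteins that carry ubiquitin chains. Its 20S core is a barrel of alpha and beta rings, in which Psmb5, Psmb6 and Psmb7 carry the constitutive active sites. The 19S cap recognises and unfolds substrates, and other activators (Psme1 with Psme2, Psme3, or Psme4) can dock in place of the cap. In many blood cells, and in other cells after interferon, Psmb8, Psmb9 and Psmb10 replace Psmb5, Psmb6 and Psmb7 to form the immunoproteasome, which is known for making peptides for MHC class I.

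Of 15014 barcodes, 10485 were kept as cells, with a median of 4855 UMIs. They fell into 37 clusters, which markers grouped into 13 named classes, 8 of them with at least 100 cells, while 6 clusters (345 cells) were unnamed. Although the tissue label is bone, 96.3% of the kept cells were in blood cell classes, with the 26 osteoclast-like cells counted among them. The osteoblast-like class held 46 cells. One erythroid-like cluster, number 18 (195 cells), carried leukocyte transcripts, with 210 CPM (counts per 1000000 UMIs) of Ptprc, the pan-leukocyte surface gene, against a median of 22.3 CPM over the erythroid-like clusters, and 845 CPM of the MHC class II chain Cd74. The immunoproteasome shares of erythroid-like cells, values of Psmb8, Psmb9 and Psmb10 and the Psme3 ratio are also given without it. Other values and counts of the erythroid-like class include it unless stated. Haemoglobin took 55.4% of the UMIs of erythroid-like cells, which lowers the CPM of every other gene there, so erythroid values are also given as non-haemoglobin CPM, counted over the UMIs that are not haemoglobin.

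Both loci of the immunoproteasome genes Psmb8 and Psmb9 lie in the MHC class II region of chromosome 17 (mm10), Psmb8 at chr17:34197721-34201454 on the plus strand and Psmb9 at chr17:34181987-34187764 on the minus strand, with the peptide transporter gene Tap1 between them at chr17:34187553-34197225. Psmb10 lies apart on chromosome 8 at chr8:105935735-105938444. Psmb9 and Tap1 overlap by 212 bases on opposite strands. In all, 13 members overlap another protein-coding gene, 4 of them on the same strand, and the sources used here do not give whether the counting used strand. The 300-base promoter windows of Psmb8 and Psmb9 are shown because their transcripts were lowest in the same class, with those of their constitutive counterparts Psmb5 and Psmb6 for comparison. They come from RefSeq (GRCm38.p6, 250 bases before to 50 after the start), are printed 5′ to 3′ on the gene's strand, and were chosen after the motif matches were seen. Capitals mark a gamma-activated site (TTCNNNGAA) in Psmb8 and an antioxidant response element core (TGACNNNGC) in Psmb5 and Psmb6. The windows are chr17:34197945-34198244 (plus) for Psmb8, chr17:34187281-34187580 (minus) for Psmb9, chr14:54617946-54618245 (minus) for Psmb5 and chr11:70525107-70525406 (plus) for Psmb6. The windows of Psmb8 and Psmb9 lie inside the gene loci given above, because the RefSeq starts differ from the starts of those loci. The Psmb9 window also reaches into the Tap1 locus.
Psmb8: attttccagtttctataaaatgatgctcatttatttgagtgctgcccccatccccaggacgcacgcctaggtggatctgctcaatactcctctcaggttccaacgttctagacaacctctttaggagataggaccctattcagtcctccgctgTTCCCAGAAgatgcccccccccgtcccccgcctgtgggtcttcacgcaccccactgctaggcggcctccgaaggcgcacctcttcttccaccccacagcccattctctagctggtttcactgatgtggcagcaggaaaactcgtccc
Psmb9: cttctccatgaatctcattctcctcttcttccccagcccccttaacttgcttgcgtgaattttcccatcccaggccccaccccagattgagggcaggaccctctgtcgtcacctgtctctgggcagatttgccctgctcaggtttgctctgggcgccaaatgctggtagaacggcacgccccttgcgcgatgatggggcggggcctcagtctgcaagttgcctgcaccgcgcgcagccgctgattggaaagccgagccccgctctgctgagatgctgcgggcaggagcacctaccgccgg
Psmb5: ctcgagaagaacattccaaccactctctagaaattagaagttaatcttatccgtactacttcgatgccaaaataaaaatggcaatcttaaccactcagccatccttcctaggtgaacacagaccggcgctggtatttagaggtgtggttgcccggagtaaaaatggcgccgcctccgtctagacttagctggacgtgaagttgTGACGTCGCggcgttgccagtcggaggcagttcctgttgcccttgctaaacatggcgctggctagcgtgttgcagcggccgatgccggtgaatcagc
Psmb6: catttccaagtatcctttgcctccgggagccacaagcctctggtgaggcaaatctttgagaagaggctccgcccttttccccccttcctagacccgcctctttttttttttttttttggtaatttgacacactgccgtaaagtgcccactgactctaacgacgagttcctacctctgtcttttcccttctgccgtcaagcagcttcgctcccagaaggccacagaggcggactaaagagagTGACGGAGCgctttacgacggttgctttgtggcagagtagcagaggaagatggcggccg

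Of the 49 members, 41 matched a promoter entry, with 44 windows. Each motif was searched on both strands. The gamma-activated site was found for 3 members (Psmb8, Psmd2, Psmg1), against 8.30% of all 32851 windows. The antioxidant core, the site bound by Nfe2l1 and Nfe2l2, was found for 6 members (Psmb5, Psmb6, Psmc6, Psmd12, Psmd9, Psme4), against 12.4% of all windows. An interferon-stimulated response element core (GAAANNGAA) was found for 7 members, Psme1 among them, against 8.56%. GATA sites (AGATAA) were found for Psmc6 and Psmd9, against 11.2%, and CCAAT for 15 members, against 37.4%. A match describes letters in this window and is not evidence of binding.

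In CPM, the members together were highest in osteoclast-like and monocyte-like cells and lowest in erythroid-like and neutrophil-like cells. Their summed level was 7330 CPM (7120 to 7544) in the 26 osteoclast-like cells and 6641 CPM (6570 to 6713) in the 501 monocyte-like cells. It was 6008 CPM in stem or multipotent progenitor-like cells, 5590 in B lineage-like cells, 5398 in plasmacytoid dendritic-like cells, 5286 in azurophil progenitor-like cells (early granule-forming myeloid cells) and 5063 in macrophage-like cells. Lower sums were 4113 CPM in T or NK-like cells, 4049 in basophil or mast-like cells, 3544 in osteoblast-like cells and 3304 in plasma cell-like cells. Neutrophil-like cells had 2800 CPM (2774 to 2827) and erythroid-like cells 2693 CPM (2666 to 2720), so among the 8 larger classes the highest was 2.47 times the lowest (2.43 to 2.502). Per non-haemoglobin UMIs the erythroid-like sum was 6045 and the neutrophil-like class was the lowest, with a highest-to-lowest ratio of 2.37. On this scale fewer member transcripts and more of other transcripts cannot be told apart.

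Each class was then compared with all other kept cells, over 13615 genes with at least 20 UMIs, 48 of them members. A gene was called higher or lower where its CPM ratio was at least 1.5-fold and its interval did not include 1. In at least 1 of the 8 classes, 39 of the 48 members were called higher, against 93.3% of all genes, and 47 were called lower, against 97.1%. At a 2-fold limit 16 members were called higher in some class, against 77.5% of all genes. Among these 8 classes, and of the 46 members with at least 500 UMIs, 24 had their lowest CPM in erythroid-like cells, 21 in neutrophil-like cells and 1 (Psmc3ip) in T or NK-like cells. The same members were highest in monocyte-like cells (15), B lineage-like cells (13), stem or multipotent progenitor-like cells (9), azurophil progenitor-like cells (4), macrophage-like cells (2), erythroid-like cells (2, Psme3 and the cap chaperone Psmd9) and T or NK-like cells (1, Psme1). This turned with the scale: by non-haemoglobin CPM 3 members were lowest and 19 highest in erythroid-like cells, 34 were lowest in neutrophil-like and 9 in T or NK-like cells. How often all genes had their extremes in each class was not counted. Of all genes, 77.1% were called lower in erythroid-like and 60.1% in neutrophil-like cells (34.6% and 67.3% per non-haemoglobin UMIs). These counts of extremes are therefore not read as a trait of the members.

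**Figure D1:**
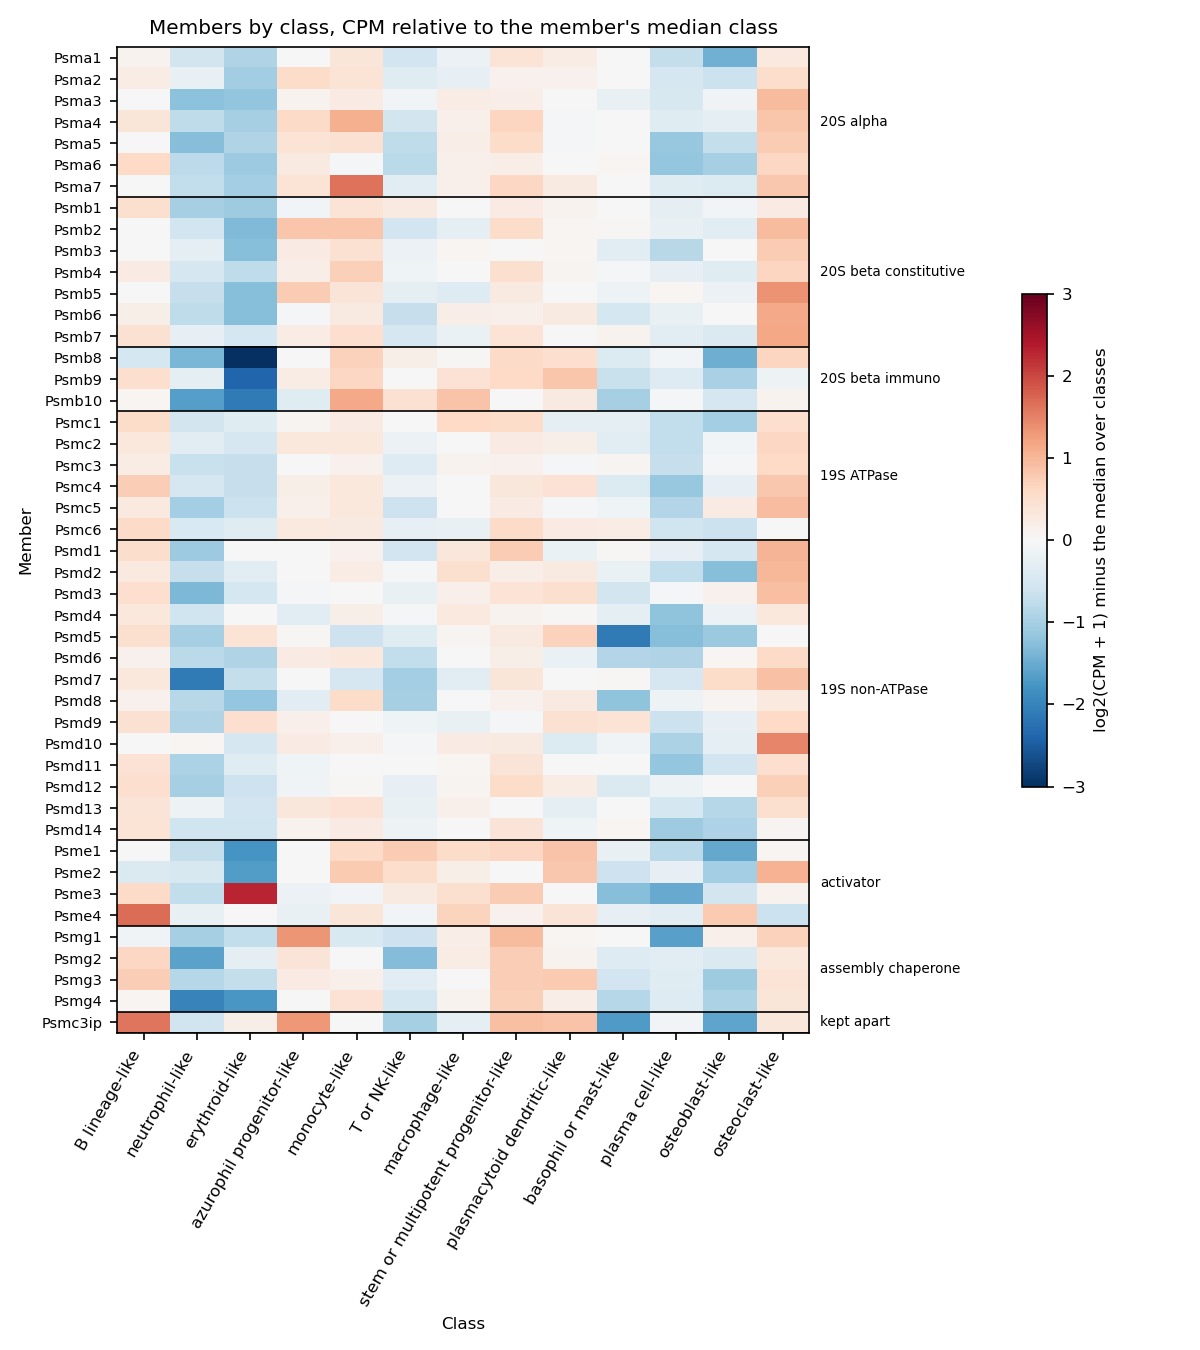
Heatmap of the 46 members with at least 500 UMIs (rows, by role) over the 13 classes (columns), coloured by log2(CPM + 1) minus the member's median over classes. Psmb8, Psmb9 and Psmb10 lie far below their medians in the erythroid-like column, where Psme3 lies above its own, Psma7 lies above its median in monocyte-like cells and Psme4 in B lineage-like cells.

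The counts by class follow, each beside its share among all genes. In B lineage-like cells 23 members were higher and 0 lower, against 52.1% and 22.1% of all genes, and per non-haemoglobin UMIs 11 were higher and 1 lower, against 43% and 25%. In neutrophil-like cells 0 were higher and 38 lower, against 12.7% and 60.1%, and per non-haemoglobin UMIs 0 and 42, against 10.5% and 67.3%. The erythroid-like class had 1 higher (Psme3) and 35 lower, against 6.3% and 77.1%, and this turned with the scale: per non-haemoglobin UMIs 11 were higher and 5 lower, against 17% and 34.6%. The median log2 ratio of members in erythroid-like cells was -0.83 (all genes: -1.52) and became 0.33 (all genes: -0.37), so the median of the members was above that of all genes on both scales.

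Azurophil progenitor-like cells had 8 members higher and 3 lower, against 11.2% and 40.4% (per non-haemoglobin UMIs 4 and 3, against 8.3% and 47.5%). Monocyte-like cells had 18 higher and 3 lower, against 20.4% and 20.6% (11 and 4, against 15.6% and 26.2%). T or NK-like cells had 5 higher and 10 lower, against 21% and 17.7% (4 and 18, against 16.3% and 21.5%). Macrophage-like cells had 4 higher and 0 lower, against 18.4% and 11.9% (3 and 1, against 15.5% and 14.9%). Stem or multipotent progenitor-like cells had 15 higher and 1 lower, against 29.1% and 13.1% (6 and 2, against 22% and 16.3%). Leaving haemoglobin out moved the median of all genes by over 0.1 log2 units in every one of the 8 classes, by -0.24 to -0.16 in the 7 others and by 1.15 in erythroid-like cells, so each count is read against the share beside it. In T or NK-like cells the members that were higher were Psmb8, Psmb10, Psme1, Psme2 and Psme2b, and in macrophage-like cells Psmb8, Psmb10, Psme1 and Psme2b. Psmb8 in T or NK-like cells was 1.68-fold (1.498 to 1.87), but 1.48-fold per non-haemoglobin UMIs and 1.37-fold without the 50 most abundant genes, both under the 1.5-fold limit.

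The summed CPM of the alpha subunits and of the constitutive beta subunits of the 20S core was in each case highest in monocyte-like cells among the 8 larger classes. Alpha subunits, which form the outer rings and the gate, had 1981 CPM in monocyte-like cells, 1477 in azurophil progenitor-like cells, 1314 in B lineage-like cells, 696 in neutrophil-like cells and 567 in erythroid-like cells (1272 non-haemoglobin CPM). Constitutive beta subunits had 1601 CPM in monocyte-like cells, 1363 in azurophil progenitor-like cells, 1317 in B lineage-like cells, 741 in neutrophil-like cells and 537 in erythroid-like cells (1206 non-haemoglobin CPM). Both groups were thus lowest in erythroid-like cells by CPM and in neutrophil-like cells by non-haemoglobin CPM. Psma7, an alpha subunit named here after its values were seen, had 747 CPM (724 to 772) in monocyte-like cells, 373 in stem or multipotent progenitor-like cells, 320.0 in azurophil progenitor-like cells, 269.6 in macrophage-like cells, 239 in B lineage-like cells, 194 in T or NK-like cells, 145 in neutrophil-like cells and 119.7 in erythroid-like cells (268.6 non-haemoglobin CPM). The monocyte-like level was 3.53 times that of all other cells (3.41 to 3.66), the largest ratio of any member in that class. After thinning to 1000 UMIs, 49.6% of monocyte-like cells (45.1 to 54.1) had a Psma7 UMI, against 17.3% of B lineage-like cells, with unthinned shares of 95.2% and 49.1% at median depths of 7856 and 3093 UMIs; thinning left out 5 and 67 cells.

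Psmb5, the constitutive subunit with chymotrypsin-like activity, was highest among the 8 larger classes in azurophil progenitor-like cells at 223 CPM (214 to 233), or 2.11 times all other cells, and had 174 CPM in monocyte-like, 158 in stem or multipotent progenitor-like, 131.5 in B lineage-like, 109.5 in T or NK-like, 101 in macrophage-like, 81.2 in neutrophil-like and 53.5 in erythroid-like cells. The values of T or NK-like (92.6 to 128) and macrophage-like cells (77.7 to 129) overlapped in their intervals. Psmb6, with caspase-like activity, had 202 CPM in monocyte-like, 191 in macrophage-like, 189 in B lineage-like, 185 in stem or multipotent progenitor-like, 163 in azurophil progenitor-like, 104 in T or NK-like, 98.6 in neutrophil-like and 67.6 in erythroid-like cells, and the first 4 overlapped. For Psmb7, with trypsin-like activity, the CPM range was narrower, from 130.3 CPM in monocyte-like and 126 in B lineage-like cells to 64.6 in T or NK-like and 63.5 in erythroid-like cells. Between these lay 121 CPM in stem or multipotent progenitor-like, 107 in azurophil progenitor-like, 78.8 in macrophage-like and 77.3 in neutrophil-like cells. In erythroid-like cells the non-haemoglobin CPM was 120.2 for Psmb5, 151.8 for Psmb6 and 143 for Psmb7. On that scale erythroid-like cells lay above neutrophil-like cells for all 3 and were the highest of the 8 classes for Psmb7, against 130.5 in monocyte-like cells. The ratio of highest to lowest class was then 2.20 for Psmb7, 2.05 for Psmb6 and 2.82 for Psmb5, so the range of Psmb7 was no longer the narrowest. The 26 osteoclast-like cells had 337 CPM of Psmb5.

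Among the 8 larger classes, the CPM of each immunoproteasome subunit was lowest in erythroid-like cells and highest in monocyte-like cells. Per non-haemoglobin UMIs this flips for Psmb10, at 34.8 non-haemoglobin CPM in erythroid-like and 21.7 (19.5 to 24.2) in neutrophil-like cells, but without cluster 18 the erythroid-like value was 22.6 (18.7 to 27.1), which overlapped. Psmb8, the counterpart of Psmb5, had 340.4 CPM (324 to 357) in monocyte-like cells, 315 in stem or multipotent progenitor-like, 239 in T or NK-like, 218 in macrophage-like, 211 in azurophil progenitor-like, 145 in B lineage-like, 81.6 in neutrophil-like and 23.8 (21.3 to 26.5) in erythroid-like cells. Its highest CPM was 14.3 times its lowest, the widest CPM range over the 8 classes of any member with at least 500 UMIs. By non-haemoglobin CPM the ranges of Psme3 (18.8), Psmc3ip (7.20), Psmb10 (7.16) and Psmg4 (7.08) were wider than the 6.38 of Psmb8. Without cluster 18 the erythroid-like level was 9.96 CPM (8.27 to 11.9), and, with that cluster left out of both sides, the ratio to all other cells was 0.0571 in place of 0.137. Per non-haemoglobin UMIs the ratio with cluster 18 was 0.304. On the non-haemoglobin scale the erythroid-like level was 53.4 with cluster 18 and 23.2 without it, still the lowest of the 8 classes.

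Psmb9, the counterpart of Psmb6, had 143 CPM in monocyte-like, 140.4 in stem or multipotent progenitor-like, 132 in B lineage-like, 126 in macrophage-like, 109 in azurophil progenitor-like, 92.6 in T or NK-like, 77.0 in neutrophil-like and 17.1 (15.03 to 19.4) in erythroid-like cells, with overlapping intervals among the first 4. Its erythroid-like ratio to all other cells was 0.155, 0.344 per non-haemoglobin UMIs and 0.0834 with cluster 18 left out. Psmb10, the counterpart of Psmb7, was highest in monocyte-like cells (155 CPM, 145 to 167) and macrophage-like cells (128, 101 to 159). Next came T or NK-like cells at 97.0 CPM (81.1 to 115), whose interval overlapped that of macrophage-like cells. Its other levels were 73.1 CPM in B lineage-like, 70.2 in stem or multipotent progenitor-like, 54.7 in azurophil progenitor-like, 21.7 (19.4 to 24.1) in neutrophil-like and 15.5 (13.5 to 17.7) in erythroid-like cells, or 9.71 (8.05 to 11.6) there without cluster 18. Against all other cells Psmb10 was 3.31-fold in monocyte-like cells (3.05 to 3.58) and 0.341-fold in neutrophil-like cells (0.305 to 0.382), whereas Psmb9 in neutrophil-like cells was 0.800-fold. Relative to all other cells, Psmb10 was thus lower than Psmb9 in neutrophil-like cells.

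The share of Psmb8, Psmb9 and Psmb10 in the UMIs of all 6 catalytic subunits was compared between classes. The share does not depend on haemoglobin, and since capture can differ between genes it is read between classes and not as the share of assembled particles. It was 60.7% (57.5 to 63.8) in T or NK-like cells, 56.4% (52.5 to 60.4) in plasmacytoid dendritic-like cells, 56.0% (51.7 to 60.3) in macrophage-like cells, 55.8% (54.5 to 57.1) in monocyte-like cells and 53.1% (51.0 to 55.2) in stem or multipotent progenitor-like cells. Neighbours in this order overlapped, and the top of it depends on the settings. The stem or multipotent progenitor-like class joined 2 clusters with shares that did not overlap. Cluster 16 (100 cells) had 55.0% (52.7 to 57.3) and cluster 36 (32 cells) had 44.9% (40.0 to 49.8). The leading genes of cluster 36 included Pf4 and Itga2b, which were markers of megakaryocytes in the lists used for naming. A middle group held plasma cell-like cells at 49.0%, B lineage-like at 43.999% (43.2 to 44.8), azurophil progenitor-like at 43.2%, basophil or mast-like at 43.0% and neutrophil-like at 41.2% (40.0 to 42.4).

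The lowest shares were 35.1% (32.0 to 38.4) in osteoclast-like, 32.8% (26.4 to 39.8) in osteoblast-like and 23.4% (22.0 to 24.8) in erythroid-like cells. Among the 8 larger classes the highest share exceeded the lowest by 37.3 percentage points (33.8 to 40.7). Without cluster 18 the erythroid-like share was 14.1% (12.7 to 15.5), from 354 immunoproteasome and 2160 constitutive UMIs, and the difference was 46.6 points. The part of leukocyte transcripts in the remaining erythroid-like share was not tested. With every cell given the same weight the difference was 40.7 points.

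**Figure D2:**
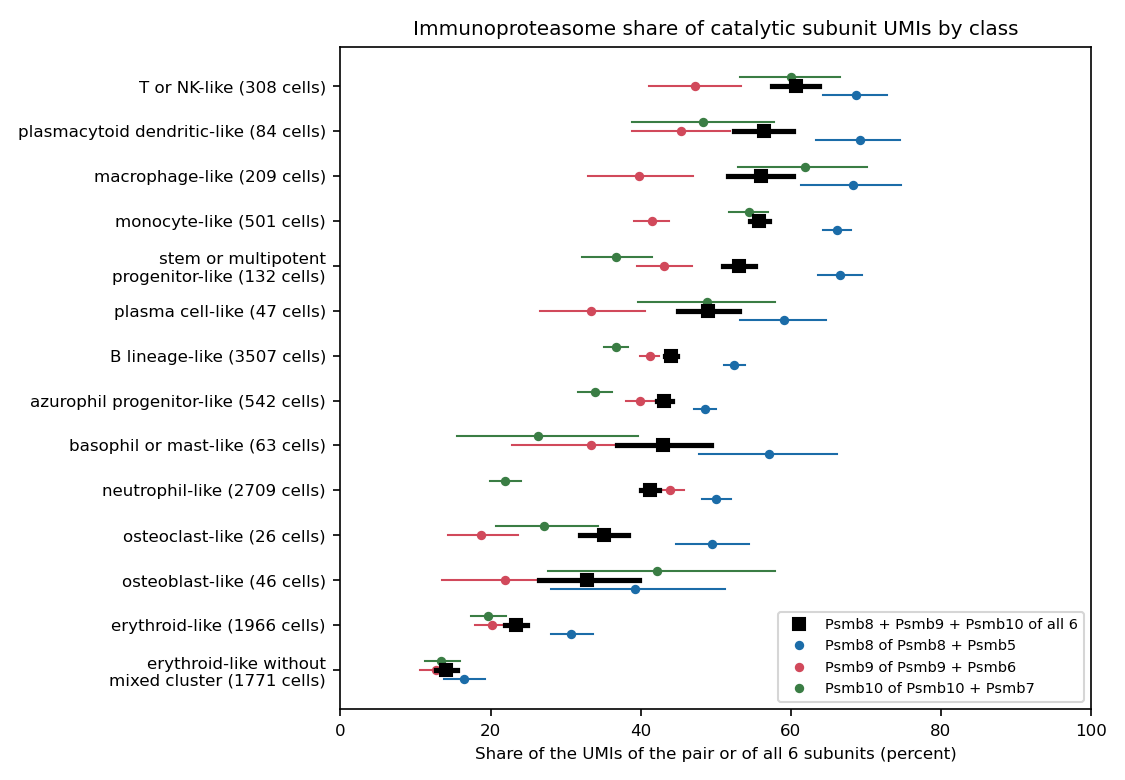
Share of UMIs (x axis, percent) in each class (rows, with cells): black squares for Psmb8, Psmb9 and Psmb10 of all 6 catalytic subunits, coloured points for each immunoproteasome subunit of its own pair, with exact 95% intervals as lines. Erythroid-like cells are lowest with or without the mixed cluster 18, and in neutrophil-like cells the Psmb10 pair (21.9%) lies far left of the Psmb8 pair (50.1%) and the Psmb9 pair (43.9%).

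Taken pair by pair, the classes ordered differently. For Psmb8 of Psmb8 and Psmb5 the share was 68.6% in T or NK-like, 68.3% in macrophage-like, 66.6% in stem or multipotent progenitor-like and 66.2% in monocyte-like cells, 52.5% in B lineage-like, 50.1% in neutrophil-like, 48.6% in azurophil progenitor-like and 30.8% in erythroid-like cells. For Psmb9 of Psmb9 and Psmb6 the 7 classes other than the erythroid-like one lay between 39.8% (macrophage-like) and 47.2% (T or NK-like), and the erythroid-like share was 20.2%. For Psmb10 of Psmb10 and Psmb7 the shares spread widely, from 61.8% (52.9 to 70.2) in macrophage-like, 60% in T or NK-like and 54.4% in monocyte-like cells to 36.7% in B lineage-like and stem or multipotent progenitor-like, 33.9% in azurophil progenitor-like, 21.9% (19.9 to 24.1) in neutrophil-like and 19.6% in erythroid-like cells. The Psmb10 pair thus placed monocyte-like, macrophage-like and T or NK-like cells above the 5 other larger classes. Without cluster 18 the erythroid-like pair shares were 16.4% for Psmb8, 12.7% for Psmb9 and 13.5% for Psmb10.

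Shares also differed between clusters of 1 class. Of the neutrophil-like clusters, number 7 (461 cells), which had the highest cell cycle gene level (3849 CPM over 12 genes) and Ngp, Camp and Ltf, genes of granule proteins, among its leading genes, had an immunoproteasome share of 35.0% (33.4 to 36.7). Within the class, however, only 1 of 6 granule-making markers (Chil3) was raised in cluster 7, and Ngp and Ltf also led cluster 23. Clusters 23 and 1 had 41.8% each, and cluster 21 had 45.7%. Cluster 23 (81 cells) also carried 731 CPM of Cd74 and 318 CPM of the B lineage marker Cd79a, against 10.1 and 6.90 in cluster 7. The part of such transcripts in its share was not tested. Cluster 3 (702 cells), with 6 of 6 mature neutrophil markers raised, had 55.0% (50.9 to 59.1), and cluster 9 (424 cells), with 4 of 6, had 67.4% (62.1 to 72.3). The clusters with at least 4 mature markers thus had the highest shares of the 6.

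The pair of Psmb9 and Psmb6 moved most between these clusters, from 37.5% in cluster 7 to 65.1% in cluster 3 and 76.2% in cluster 9. In CPM, Psmb6 was 134 in cluster 7, 46.5 in cluster 3 and 48.8 in cluster 9, and Psmb9 was 80.6, 86.7 and 156. Psmb5 went from 107 to 43.4 and 55.7 CPM in the same clusters and Psmb8 from 86.3 to 65.3 and 134. The Psmb10 pair was 16.3%, 23.0% and 35.2%, with 19 to 124 Psmb10 UMIs a cluster. Median depth moved with these clusters, at 12768 UMIs in cluster 7, 2550 in cluster 3 and 1648 in cluster 9, and its part in the shares was not tested.

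**Figure D3:**
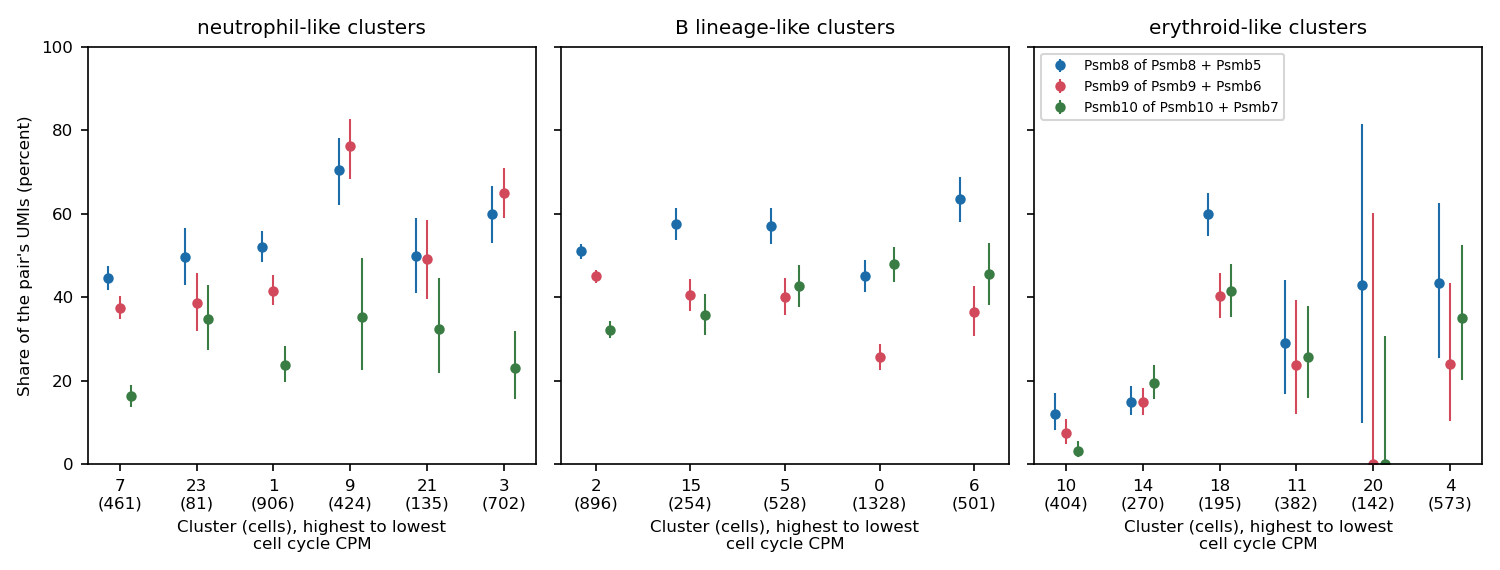
Share of each immunoproteasome subunit in its pair (y axis, percent, exact 95% intervals) in the neutrophil-like, B lineage-like and erythroid-like clusters, ordered by cell cycle gene level with the number of cells in brackets. In neutrophil-like clusters 3 and 9 the Psmb9 pair is above 60% while the Psmb10 pair stays below 40%; erythroid-like cluster 18 lies above clusters 10 and 14 in all 3 pairs.

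B lineage-like clusters spanned a narrower range. Cluster 0 (1328 cells), with 3 of 5 small pre-B markers raised (Rag1, Il2ra, Cecr2), had a share of 38.4% (36.2 to 40.5). The cycling cluster 2 (6292 CPM of cell cycle genes) had 43.9%, cluster 15, with 5 of 6 pro-B markers, 46.1%, cluster 5, with 5 of 7 immature or mature B markers, 47.2%, and cluster 6, with 7 of 7, 50.1% (46.5 to 53.8). Cluster 0 differed from the others in the Psmb9 pair, at 25.7% (22.7 to 28.9) against 36.6% to 45.0%. Psmb9 itself had 58.9 CPM (51.1 to 67.6) in cluster 0, an overlapping 62.3 (50.4 to 76.3) in cluster 6 and 174 in cluster 2. Psmb6 had 170 CPM in cluster 0 and 108 in cluster 6. The Psmb10 pair of cluster 0, at 48.0%, was the highest of the 5 clusters.

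Erythroid-like clusters held both the lowest share and the highest level of members. Cluster 14 (270 cells), with the early markers Klf1, Gata1 and Car1 raised and 1.5% haemoglobin UMIs and a median of 1362 UMIs, had 8326 CPM of members (8182 to 8471), the highest sum of any cluster with at least 100 cells, but an immunoproteasome share of 16.3% (14.4 to 18.5). Cluster 10 (404 cells), with 5 of 6 early markers and 10173 CPM of cell cycle genes, had a share of 6.89% (5.36 to 8.70), from 65 immunoproteasome and 878 constitutive UMIs. In cluster 10 Psmb8 had 7.35 CPM, Psmb9 6.56 and Psmb10 3.15, while Psmb5 had 53.3, Psmb6 81.4 and Psmb7 95.8. The haemoglobin-rich clusters 11, 4 and 20 had 41, 33 and 3 immunoproteasome UMIs, and their shares of 26.3%, 34.4% and 14.3% have intervals from 3.05% to 44.8%. Cluster 18, the mixed one, had 48.3%.

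Levels of the 19S cap in erythroid-like cells depended on the scale. Its ATPases, which unfold substrates, had 598 CPM in B lineage-like, 558 in stem or multipotent progenitor-like, 525 in monocyte-like, 359 in T or NK-like, 298.5 in erythroid-like and 289.7 in neutrophil-like cells. The Psmd genes of the cap, assembly factors among them, had 1286, 1238, 1152, 787, 739.6 and 574.5 CPM in the same classes. By non-haemoglobin CPM erythroid-like cells were the highest of the 8 larger classes for both groups, at 670.0 and 1660.0, against 599 and 1289 in B lineage-like cells. Over the 8 larger classes and members with at least 500 UMIs, the narrowest CPM ranges were those of cap genes: Psmd10, the cap assembly factor gankyrin, from 30.7 CPM in stem or multipotent progenitor-like to 17.4 in erythroid-like cells (a ratio of 1.76), the ATPases Psmc2 (1.80) and Psmc3 (1.87). For Psmc2 the levels ran from 65.4 CPM in B lineage-like to 36.2 in erythroid-like cells, and for Psmc3 from 128 to 68.1 in the same classes. By non-haemoglobin CPM erythroid-like cells were instead the highest for all 3, at 39.0 for Psmd10, 81.3 for Psmc2 and 153 for Psmc3, and their ranges were 1.61, 1.98 and 2.21.

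Among the Psmg assembly chaperones, Psmg1, which pairs with Psmg2 to build the alpha ring, had 42.3 CPM in azurophil progenitor-like cells, 3.52 times all other cells (3.12 to 3.97), and 7.68 CPM in neutrophil-like cells. Psmg4 had 84.9 CPM in stem or multipotent progenitor-like cells (2.36 times all other cells) and 12.0 CPM in neutrophil-like cells. All 4 Psmg chaperones were lowest in neutrophil-like cells among the 8 larger classes. Psmd7, a scaffold subunit of the cap, was the member with the lowest ratio there, at 21.6 CPM or 0.233 times all other cells. These members were named after their values were seen.

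The activators went different ways. Psme1 and Psme2, which together form the 11S activator that interferon gamma raises, had their highest CPM among the 8 larger classes in T or NK-like cells (Psme1) and monocyte-like cells (Psme2). Psme1 had 321 CPM (292 to 353) in T or NK-like, 293 in stem or multipotent progenitor-like, 284 in monocyte-like, 279 in macrophage-like, 189.8 in azurophil progenitor-like, 188 in B lineage-like, 114.5 in neutrophil-like and 55.2 in erythroid-like cells, and the first 4 had overlapping intervals. Psme2 had 175 CPM in monocyte-like, 147 in T or NK-like, 115 in macrophage-like, 102 in azurophil progenitor-like, 101 in stem or multipotent progenitor-like, 75.3 in B lineage-like, 72.6 in neutrophil-like and 30.9 in erythroid-like cells. The erythroid-like values of both include the mixed cluster 18, which had 112 CPM of Psme1 and 55.9 of Psme2. The near copy Psme2b was 3.07-fold in B lineage-like cells, where Psme2 was 0.893-fold.

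Psme3, the gene of the nuclear activator PA28 gamma, was highest where the immunoproteasome genes were lowest in CPM. It had 283 CPM (275 to 292) in erythroid-like cells, 97.8 in stem or multipotent progenitor-like, 85.8 in B lineage-like, 80.4 in macrophage-like, 69.1 in T or NK-like, 54.4 in monocyte-like, 50.7 in azurophil progenitor-like and 33.8 (31.0 to 36.8) in neutrophil-like cells. Erythroid-like cells stood 4.63-fold above all other cells (4.42 to 4.84), 10.3-fold per non-haemoglobin UMIs and 4.95-fold with cluster 18 left out of both sides. After thinning to 1000 UMIs 26.4% of erythroid-like cells (24.4 to 28.5) had a Psme3 UMI, against 3.42% of neutrophil-like cells (2.76 to 4.19), with unthinned shares of 75.2% and 16.5% at median depths of 6299.5 and 4262 UMIs; 123 and 80 cells were too shallow. In the 7 other larger classes the thinned share lay between 3.42% and 9.85%, below the interval of erythroid-like cells.

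Within the erythroid-like class Psme3 and the other members differed in opposite directions along the haemoglobin share. In the early cluster 14 Psme3 had 173 CPM, or 176 non-haemoglobin CPM (155 to 198), and 2.08% of all member UMIs. Cluster 10 had 251 CPM and 7.07%, and cluster 11, at 68.8% haemoglobin, had 424 CPM and 35.6%. In clusters 4 and 20, at 88.0% and 84.6% haemoglobin, Psme3 had 301 and 435 CPM, 2515 and 2816 non-haemoglobin CPM, and 51.0% (48.8 to 53.1) and 56.6% (52.7 to 60.4) of all member UMIs. The other members together were 8277 non-haemoglobin CPM in cluster 14, 5175 in cluster 10, 2457 in cluster 11, 2418 in cluster 4 and 2159 in cluster 20. On this scale Psme3 was 16.0-fold higher in cluster 20 than in cluster 14, and the sum of the other members was 3.83-fold higher in cluster 14. All of these clusters come from 1 library, and the mixed cluster 18 had 310.5 and 5547 on the same scale.

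**Figure D4:**
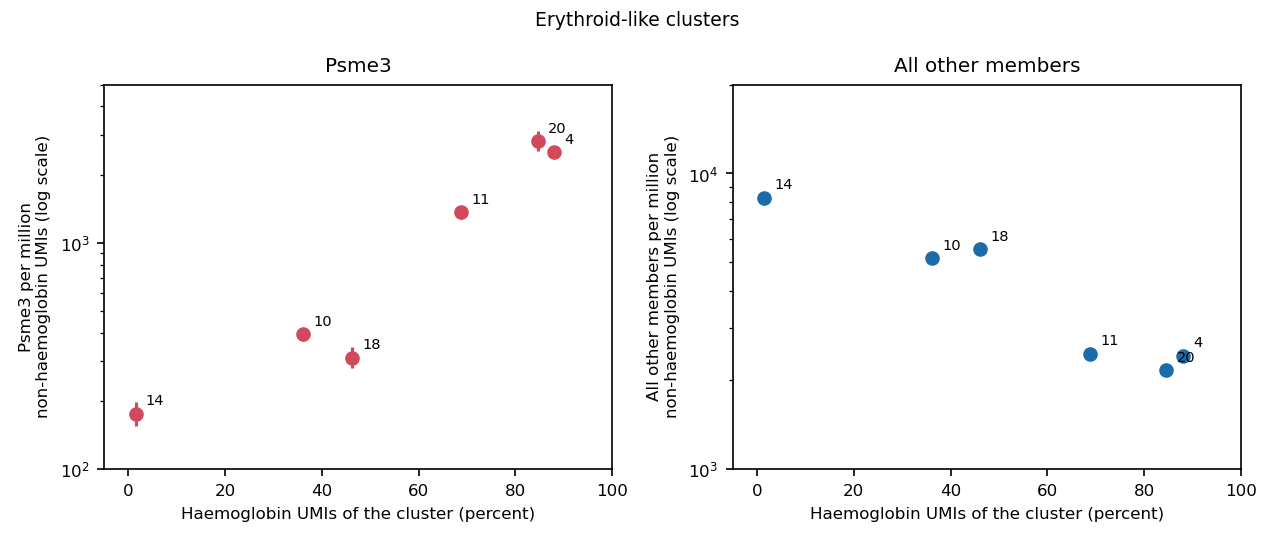
Psme3 (left) and the sum of all other members (right), as non-haemoglobin CPM on log axes, against the haemoglobin share of each erythroid-like cluster (labelled by number); lines on the left are exact 95% intervals. Psme3 runs from 176 in cluster 14 to 2816 in cluster 20, and the other members run from 8277 to 2159.

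Psme4, the gene of the activator PA200, was named after its values were seen. It had 179 CPM (173 to 185) in B lineage-like cells, 88.3 in macrophage-like, 71.1 in monocyte-like, 59.99 in stem or multipotent progenitor-like, 55.1 in erythroid-like, 52.2 in T or NK-like, 47.4 in azurophil progenitor-like and 46.9 in neutrophil-like cells. The B lineage-like level was 3.35 times that of all other cells (3.18 to 3.52). Within the B lineage it was 384.5 CPM in the small pre-B-like cluster 0 (1331 UMIs), 151 in the cycling cluster 2, 116 in cluster 5, 87.7 in cluster 15 and 85.5 in cluster 6. The level was thus highest in cluster 0, and without that cluster the B lineage-like class had 132 CPM, 2.47 times all cells of other classes. With a limit of 5% mitochondrial UMIs the ratio was 1.98. At that limit 32 of the 1328 cells of cluster 0 remain, whose median mitochondrial share was 8.28%.

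Other genes of the pathway were taken from a list of 25, of which 23 were in the matrix. In T or NK-like cells, the class with the highest immunoproteasome share, 3 were higher, 4 lower and 16 neither, with a median log2 ratio of 0.02 (all genes: 0.07). Ngly1, which processes Nfe2l1, was among the highest there at 36.7 CPM (1.77-fold), and the stress factor Nfe2l2 was among the lowest (0.460-fold). In erythroid-like cells 2 were higher and 16 lower, with a median of -0.88 (all genes: -1.52), beside 77.1% of all genes lower. Per non-haemoglobin UMIs 6 were higher and 2 lower, with a median of 0.27 (all genes: -0.37). Among the higher on both scales was Psmf1, which encodes the inhibitor PI31, with 58.3 CPM (3.24-fold, 2.96 to 3.56). The lowest were Sem1, a small cap subunit, at 0.210-fold and Nfe2l2 at 0.289-fold (0.467 and 0.642 per non-haemoglobin UMIs).

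Genes of antigen presentation by MHC class I were examined as the known setting of the immunoproteasome. Of 12 in T or NK-like cells 9 were higher and 0 lower, with a median log2 ratio of 1.08 (all genes: 0.07, with 21% higher), led by Nlrc5, the transactivator of class I genes, at 85.9 CPM (8.51-fold) and Tapbpl, a peptide editor, at 90.4 CPM (7.08-fold), with the chaperones Canx (1.06-fold) and Calr (1.15-fold) lowest. In erythroid-like cells all 12 were lower, with a median of -2.01, beside 77.1% of all genes lower and their median of -1.52, from Nlrc5 (0.177-fold) and Tap2 (0.189-fold) to Tapbp (0.491-fold) and Canx (0.616-fold). Per non-haemoglobin UMIs 9 were lower and 0 higher there, beside 34.6% of all genes lower, with a median of -0.85 (all genes: -0.37), and Tapbp (1.09-fold) and Canx (1.37-fold) changed sign. The counts of the other classes are read against the shares of all genes given with the members. Neutrophil-like cells had 0 higher and 8 lower. Macrophage-like cells had 9 higher and 0 lower, and stem or multipotent progenitor-like cells 8 and 0. B lineage-like cells had 5 higher and 1 lower, monocyte-like cells 6 and 0, and azurophil progenitor-like cells 2 and 3.

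Interferon response genes were counted in the same way. Of 13, 4 were higher and 1 lower in T or NK-like cells, with a median of 0.46 (all genes: 0.07), with Igtp at 8.11-fold and Gbp2 at 4.80-fold highest and Isg15 at 0.318-fold and Oasl2 at 0.717-fold lowest. Stem or multipotent progenitor-like cells had 0 higher and 4 lower at an immunoproteasome share of 53.1%, and azurophil progenitor-like cells had 0 higher and 13 lower at 43.2%. Monocyte-like and macrophage-like cells had 9 and 8 higher, and 0 lower in each. B lineage-like cells had 2 higher and 6 lower. Neutrophil-like cells had 3 higher and 6 lower, beside 12.7% and 60.1% of all genes, with a median of -0.46 (all genes: -1.01). The counts of the other classes are likewise read against the shares of all genes given with the members. In erythroid-like cells 2 were higher, Isg15 (8.14-fold) and Ifit1 (4.34-fold), and 9 were lower, Gbp2 (0.109-fold) and Ifi27l2a (0.142-fold) being the lowest. This share of lower genes was below the 77.1% of all genes, and the median was -1.25 (all genes: -1.52). Per non-haemoglobin UMIs 4 were higher and 4 lower, with a median of -0.10 (all genes: -0.37).

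Cell cycle genes differed between classes. All 12 were lower in T or NK-like cells, beside 17.7% of all genes, from Cdk1 (0.171-fold) and Rrm2 (0.172-fold) to Mcm5 (0.339-fold) and Pcna (0.626-fold). Their median log2 ratio was -2.21 (all genes: 0.07). All 12 were also lower in macrophage-like cells, beside 11.9% of all genes. Neutrophil-like cells had 8 lower, monocyte-like 6, stem or multipotent progenitor-like 5 and azurophil progenitor-like 1, with 0 higher in each. B lineage-like cells had 9 higher and 0 lower. These counts are read against the shares of all genes given with the members. In erythroid-like cells 4 were higher, beside 6.3% of all genes, and 0 lower, with a median of 0.22 (all genes: -1.52). Ube2c (2.52-fold) and Mki67 (2.35-fold) were highest there and Cdc20 (0.812-fold) and Top2a (0.893-fold) lowest. Per non-haemoglobin UMIs all 12 were higher in erythroid-like cells, beside 17% of all genes, from 1.81-fold for Cdc20. On that scale all 12 were still lower in T or NK-like and macrophage-like cells. Over the 23 clusters with at least 100 cells, Pearson's r between the sum of members per non-haemoglobin UMIs and the log2 cell cycle CPM was 0.69. Between the immunoproteasome share and the log2 cell cycle CPM it was -0.41. The cell cycle CPM counts haemoglobin UMIs, so the first r sets unlike scales against each other. Both values are descriptions over clusters of 1 library that differ in depth.

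Genes most like the immunoproteasome were sought over the same 23 clusters, among 6775 genes outside the members with at least 1000 UMIs, by Pearson's r of log2(CPM + 10) with the mean of Psmb8, Psmb9 and Psmb10. The nearest were Mvb12a (0.97), Tm2d2 (0.96), Rrbp1 (0.96), H13 (0.95) and Ntan1 (0.95). Tap1 ranked 19 at 0.93, B2m 187 at 0.88, Tap2 687 at 0.82 and Irf1 2387 at 0.72. Of the members, Psme1 had 0.97, Psme2 0.91, Psmb5 and Psmb6 0.83 each, Psmb7 0.71 and Psme3 -0.67. The clusters share depth and haemoglobin differences, which enter every one of these values.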

How the data were processed

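The values are UMI counts, not normalized, in 1 deposited gene-by-barcode matrix that Cell Ranger 3.1.0 produced, per the file headers. Seurat 3 and the build mm10 are named, without their role, per the submitters' processing notes. The 15014 deposited barcodes had 500 to 80413 UMIs each (median 3812). Filters of at least 500 UMIs and 200 genes, and no more than 10% of UMIs from mitochondrial genes, left 11007 barcodes, and Scrublet in scanpy 1.11.5 removed 522 as doublets (4.74%). Members were left out of the 2000 variable genes. Cells were clustered on 30 principal components and 15 neighbours with leidenalg 0.10.2 at resolution 1.0 (Python 3.11.15, scipy 1.17.1), and clusters led by markers of a second type were clustered again at 0.3.

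Markers of 23 cell types gave the names. A cluster needed 3 markers raised 2-fold with a UMI in 10% of its cells, and it stayed unnamed on a tie, where another type led, where it was shallow with no marker of its own leading, or where 4 of its leading genes also led a larger cluster named otherwise. This naming rule, the sub-clustering, the non-haemoglobin scale and the mixed cluster (Ptprc at least 5 times the erythroid-like median) were set after the data were seen. The members, lists and rules were chosen with earlier results of these data known.

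Counts were summed per class. CPM intervals are exact Poisson, shares Clopper-Pearson and ratios conditional binomial, at 95%. The interval of the difference between the highest and lowest share combines their Clopper-Pearson limits and is approximate. Log2 ratios had 0.5 counts added. Named genes were the 6 catalytic subunits, Psme1, Psme2 and Psme3, the 3 members with the widest and the 3 with the narrowest range among those with at least 500 UMIs, the 5 genes most like the immunoproteasome, and 2 from each end of each list in the classes with the highest and lowest share; others are marked as named afterwards. Some genes that this rule names are not reported here. Calling was tested on simulated data. Paaf1 and Ecpas of the pathway list did not match a symbol. Gene positions are from GENCODE vM21.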

Additional observations from a re-analysis of the deposited data

How the results depend on the processing

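Filters, clustering, scaling and fold limits were each changed in turn. No paired analysis was possible because the data are 1 group in 1 pooled matrix, and leaving out records was not possible for the same reason. The difference between the highest and lowest immunoproteasome share, 37.3 points, was 32.6 with doublets kept, 31.5 at a 5% mitochondrial limit and 46.6 without the mixed erythroid-like cluster. The highest class was macrophage-like with at least 1500 UMIs, with doublets kept, at a 20% limit and at resolution 0.5. At the 5% limit it was monocyte-like. T or NK-like, macrophage-like and stem or multipotent progenitor-like cells did not reach 100 cells at that limit, so its difference leaves them out. Erythroid-like cells were lowest in every setting, at 14.1% to 29.0%. The ratio of the highest to the lowest summed CPM, 2.47, was 2.41 with doublets kept, 2.57 with every cell weighted the same, 2.41 at a 20% and 3.18 at a 5% mitochondrial limit, 2.37 per non-haemoglobin UMIs, 2.30 at resolution 0.5, 1.62 without the 50 most abundant genes and 2.54 without the mixed cluster. The lowest class became neutrophil-like per non-haemoglobin UMIs and without the 50 most abundant genes. Of members called higher, 39, there were 16 at a 2-fold limit and 22 without the 50 most abundant genes; counts called lower stayed within 1.5 times of 47. Of 79 alternative values of 8 single gene ratios, 0 changed direction and 39 moved beyond their counting interval. Psmb8 in T or NK-like cells fell below the 1.5-fold limit, at 1.48 per non-haemoglobin UMIs and 1.37 without the 50 most abundant genes. Psmb8 in erythroid-like cells was 0.209-fold with doublets kept and 0.213-fold at resolution 0.5, against 0.137. The cause of these changes was not tested. The B lineage-like class held 565 to 5048 cells over the settings, most affected by the mitochondrial limit. Depth limits the haemoglobin-rich erythroid-like clusters most, where the immunoproteasome subunits together had 3 to 41 UMIs a cluster.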

Other observations

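Some clusters without a name also had high immunoproteasome shares. Cluster 22 (102 cells), led by Cd209a, H2-Eb1 and other MHC class II genes and holding more dendritic than monocyte markers among its leading genes, had a share of 65.9% (62.6 to 69.2), 428 CPM of Psmb8 and 505 CPM of Psma7. Cluster 24 (79 cells, median 592 UMIs), led by the epithelial genes Psca, Krt13 and Krt6a, had a share of 73.0% (63.2 to 81.4) on 73 immunoproteasome and 27 constitutive UMIs, with 1096 CPM of Psmb8 (58 UMIs) and 491 CPM of Psme2 (26 UMIs). Cluster 26 (64 cells, median 741.5 UMIs), led by Ypel4, Dyrk3 and Lpin2, had 58 Psme3 UMIs, or 1102 CPM, and 4 immunoproteasome and 0 constitutive UMIs.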
